A study of Mus musculus with 4 samples.

Results

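Mitochondrial ribosomal protein genes were described in mouse leukemia cells (strain C57BL/6, bone marrow). Cells of the WT genotype gave 2 libraries, replicates 4 and 5, and cells of the YBX1-/- genotype gave 2 libraries, replicates 1 and 3, whose titles say cKO. The members are the rows whose symbol is Mrpl or Mrps followed by a number and at most 1 letter, with a deposited log2 value of at least 0 in 2 or more libraries, leaving out rows listed at exactly 0 in all 4. Of 78 rows with such a symbol 77 passed, out of 17303 rows of the whole table that passed the same filter. Mrpl53 was left out, since it is listed at 0 in all 4 libraries. The labels name no leukemia driver, Cre line, promoter or age, and do not say whether the replicates came from separate mice. The spread that p-values measure is thus only that between these 4 samples, and may be technical. The values are the authors' normalized log2 expression, with no counts, so the depth behind each value is unknown. Whether they are scaled by transcript length is not given in the sources used here, so levels are compared mainly between libraries within a gene. Comparisons of level between genes, as for ranges and rows of like level, are approximate.

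Mitochondrial ribosomal proteins are encoded in the nucleus, made in the cytosol and imported into mitochondria. There they form the large (Mrpl) and small (Mrps) subunits of the mitochondrial ribosome with ribosomal RNAs from mitochondrial DNA. This ribosome translates the few proteins that mitochondrial DNA encodes, all of them subunits of the respiratory chain and ATP synthase. Some members have counterparts in the bacterial ribosome and others are found only in mitochondria. Myeloid leukemia cells are known to depend on mitochondrial translation. YBX1 binds mRNA, and the title of the series names mRNA stability and the survival of leukemia cells as its subject.

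Ybx1 itself checked the labels. It was at 19.70 in WT replicate 4 and 10.002 in WT replicate 5, against 7.29 and 8.33 in the knockout libraries, so both knockout libraries lay below both WT libraries. The limma difference of -7.04 (SE 3.49) had an adjusted p of 0.826, and without WT replicate 4 it was -2.19 (adjusted p = 0.480). Its level in WT replicate 4 lay far above that in WT replicate 5. Among marker genes, 7 of 9 for myeloid leukemia cells, among them Ptprc, Mpo, Spi1, Meis1 and Hoxa9, were above 7 in all libraries, while Kit was between 3.56 and 5.35 and Cebpa between 4.81 and 6.21. The B cell genes Ms4a1 and Pax5 and the T cell genes Cd3e and Cd3g were at or below 0 in all libraries, while Cd79b, also a B cell marker, was between 5.16 and 7.41. Of the other T and NK cell markers, Nkg7 was between 8.41 and 19.38 and Trac between 2.11 and 4.09. Of 8 neutrophil markers, 7 lay lower in both knockout libraries than in WT replicate 5, with a median difference of -0.80. The log2 of their summed linear level was 22.83 and 16.87 in the WT libraries and 15.22 and 15.66 in the knockout libraries. In WT replicate 4, Camp, Ngp, S100a8 and S100a9 lay above WT replicate 5, while Ltf, Lcn2, Mmp8 and Cd177 lay below it. Against both WT libraries 5 of the 8 neutrophil markers lay lower. Of 6 monocyte and macrophage markers, 5 also lay lower than in WT replicate 5 in both, with a median of -0.65. The part of these markers in the results below was not tested.

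WT replicate 4 differed from the other libraries more than these did from each other. Across the 77 members, which share each library, its Pearson's r with the others was 0.31 to 0.33, while the other 3 had 0.93 to 0.94 with each other. Over all rows tested the same values were 0.69 to 0.71 and 0.93 to 0.96. Its values lay in 3 separate ranges, split at 6.5 and 12 after they were seen. In the lowest range, from 4.43 to 5.99, lay 42 members (54.5%), where 35.6% of all rows tested lay between 4.4 and 6.5. Of the 9009 rows whose mean in the other 3 libraries was within the members' range, 60.0% lay there, so the members were not more frequent in it than rows of like level. The mean of those 42 members over the other 3 libraries ran from 4.42 to 10.21, so a wide span of levels there corresponded to a narrow one in WT replicate 4. The middle range, from 7.08 to 10.36, held 26 members. The highest range, from 14.40 to 20.70, held 9 members, 8 of the large subunit and 1 of the small, or 11.7% against 7.31% of all rows tested and 9.61% of the rows of like level. Those 9 lay between 8.04 and 10.80 on average in the other libraries. They were Mrpl3, Mrpl12, Mrpl15, Mrpl18, Mrpl23, Mrpl30, Mrpl45, Mrpl57 and Mrps21, singled out after their values were seen. Mrpl45, for example, was at 20.70 in WT replicate 4 and at 10.30, 11.14 and 10.96 in WT replicate 5 and the knockout replicates 1 and 3. The main differences are therefore given both with this library and without it.

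**Figure D1:**
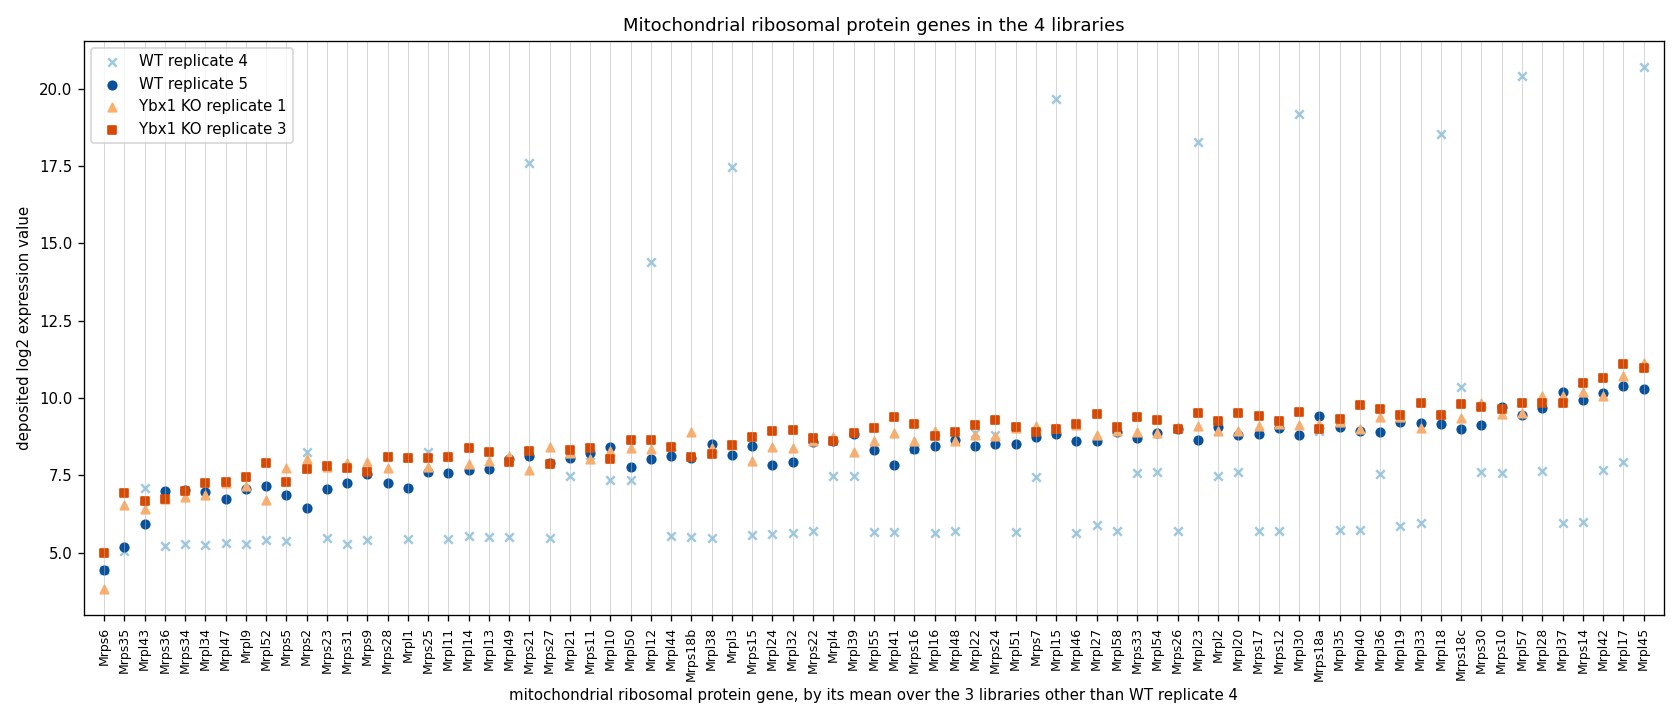
Deposited log2 value (y axis) of each of the 77 members (x axis, ordered by the mean of the 3 libraries other than WT replicate 4) in the 4 libraries, 1 symbol per library. WT replicate 5 and both knockout libraries follow each other along the order, while the crosses of WT replicate 4 lie in 3 ranges, with 9 members at 14.40 or more.

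**Figure D2:**
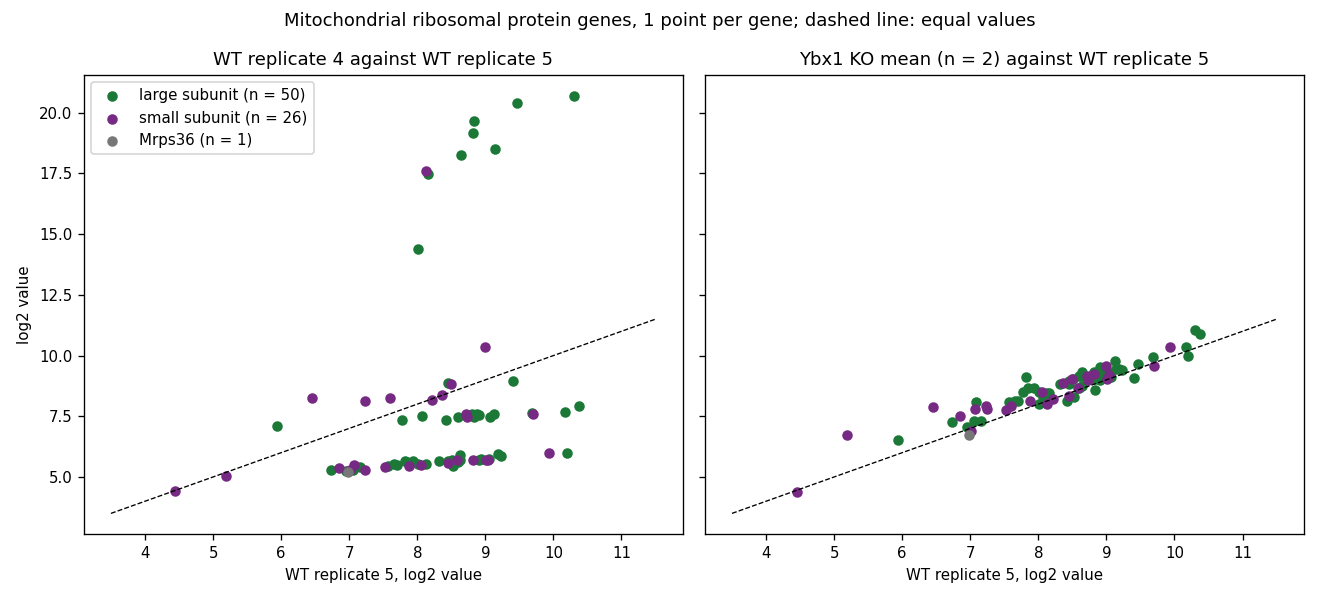
Each point is a member, coloured by subunit, with WT replicate 5 on the x axis of both panels and WT replicate 4 (left) or the knockout mean (right) on the y axis (log2 values). On the left WT replicate 4 does not follow the line of equal values, and on the right the knockout mean (n = 2) lies mostly on or slightly above it.

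The members lay higher in the knockout libraries than in WT as a group, by a small amount once WT replicate 4 was left out, and no single member passed the test. Limma called 0 of 77 members at an adjusted p under 0.05, beside 0.0% of all rows tested, and no member had an adjusted p below 0.826. With the unadjusted p at the same threshold it found 0 members, beside 3.76% of all rows. Without WT replicate 4 limma again called 0 members, beside 0.0% of all rows, with 5 (6.49%) at an unadjusted p under 0.05, beside 10.4% of all rows. All 5 lay higher in knockout, where 5.4% of all rows did. Those 5 were Mrps2, Mrpl1, Mrps35, Mrpl45 and Mrpl41, with adjusted p-values of 0.477 to 0.480. In these bulk libraries, fewer cells of a type and less RNA per cell cannot be told apart.

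Against WT replicate 5 alone, 56 of 77 members (72.7%) were higher in both knockout libraries and 7 (9.09%) were lower in both, beside 41.8% and 33.4% of all rows tested. The median difference was 0.32, and 0.07 over all rows. The members' medians by library were 8.46 in WT replicate 5, 8.62 in knockout replicate 1 and 8.90 in knockout replicate 3. Knockout replicate 1 lay a median of 0.26 above WT replicate 5, and knockout replicate 3 a median of 0.48. Knockout replicate 3 lay a median of 0.26 above knockout replicate 1, the same median as that of knockout replicate 1 over WT replicate 5. Regardless of sign, the 2 knockout libraries differed by a median of 0.29, beside 0.46 over all rows. Knockout replicate 3 was the higher of the 2 in 52 of 77 members. Over all rows tested it was higher in 8011 of 17303, with a median of -0.01. In the titles, knockout replicate 3 is marked as RNA-seq with a 2 and the other 3 libraries with a 1, a distinction that the labels leave without explanation. Its part in the result was not tested. In 28 members (36.4%) the gap to WT replicate 5 was wider than the distance between the knockout libraries and lay on the higher side, and in 2 (2.6%) on the lower side, beside 20.5% and 18.6% of all rows. With 1 WT library left, the WT level has no replicate of its own.

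With both WT libraries, 41 of 77 members (53.2%) had both knockout values above both WT values and 0 had both below, beside 17.3% and 18.8% of all rows tested. The median difference over the members was 1.28, and -0.09 over all rows. Of the 41, 29 lay in the lowest range of WT replicate 4 and 12 in its middle range. All 29 members of the lowest range that were above WT replicate 5 were also above both WT libraries, so there the order was set by WT replicate 5. With only rows of at least log2 5 in 2 libraries, 41 of 76 members lay above both WT libraries, beside 30.8% of 9144 rows, and 0 below, beside 9.30%. The median difference with this filter was 1.28 over the members and 0.60 over all rows that passed it, so the -0.09 above depends on rows of low level. Without WT replicate 5, the comparison rests on WT replicate 4 as the only WT library. The median difference was then 2.02 over the members, beside -0.46 over all rows. Both knockout values lay above WT replicate 4 in 59 members and below it in 14, beside 38.5% and 50.7% of all rows. The 9 members of the highest range were among those 14.

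**Figure D3:**
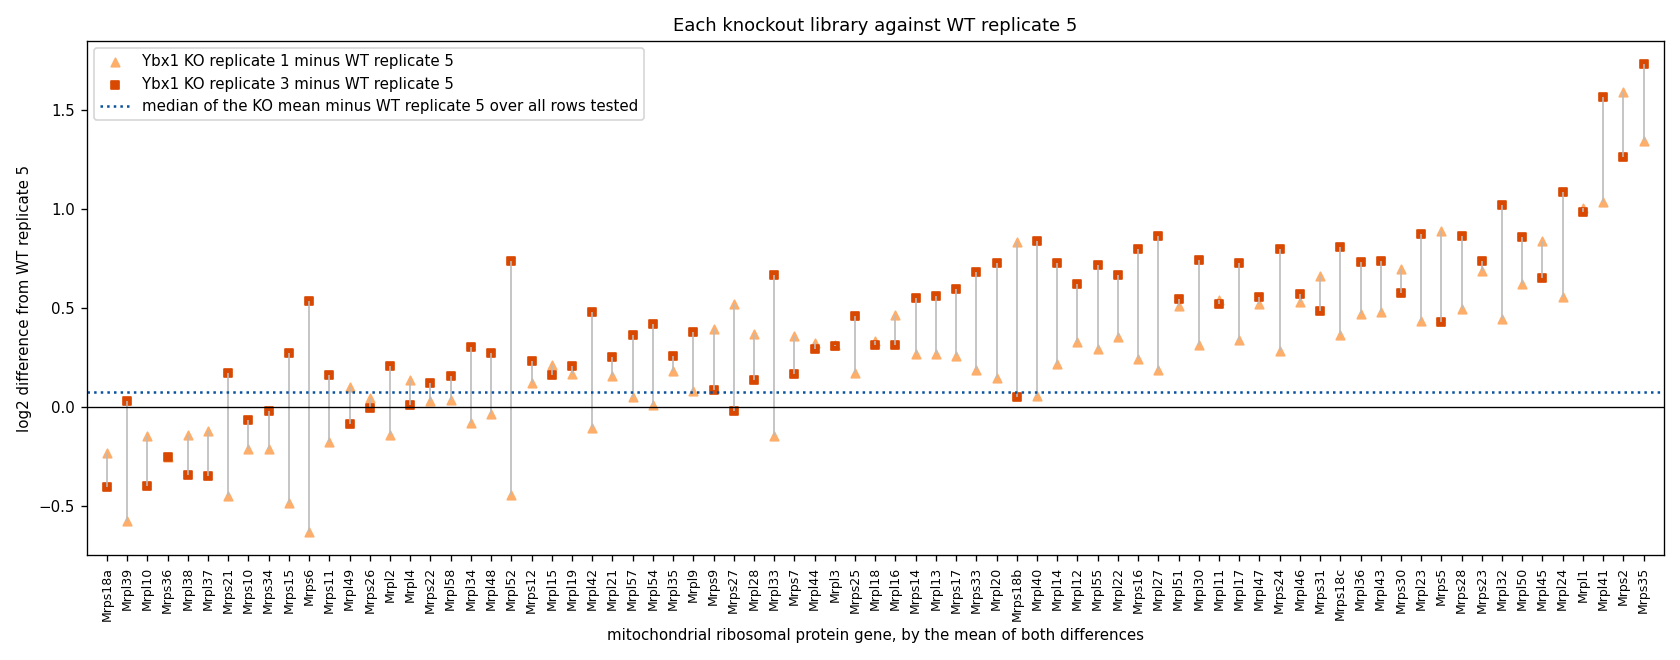
Log2 difference of each knockout library from WT replicate 5 (y axis) for each of the 77 members (x axis, ordered by the mean of both), with a grey line joining the 2 knockout libraries and a dotted line at the median over all rows tested (0.07). Most members lie between 0 and 1, Mrpl41, Mrps2 and Mrps35 reach beyond, and the grey lines are often as long as the distance to 0.

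Shared sequence at the start of these genes was looked at because many members lay on the same side. RefSeq windows of 300 bases (250 before and 50 after the start, GRCm38.p6) were found for 68 of the 77 members, 74 windows in all. The members without an entry were Mrpl4, Mrpl13, Mrpl15, Mrpl19, Mrpl38, Mrpl54, Mrps28, Mrps34 and Mrps35. Both strands were searched. The NRF1 motif, GCGCA and GCGC with any base between them, belongs to a transcription factor known for nuclear genes of mitochondria, and was in 17.6% of member windows and 4.60% of all 32851 windows. The motif CCGGAAG of ETS factors, among them GABP, was in 33.8% against 8.86%. The motif ATGGCGG, a core of YY1 sites, was in 16.2% against 4.05%, and TATAAA in 6.76% against 13.6%. The median G and C content was 58.5% in member windows and 52.7% in all, and the part of base composition in these shares was not tested. The median difference from WT replicate 5 was 0.31 with and 0.41 without the NRF1 motif, and 0.26 and 0.44 for the ETS motif. Above WT replicate 5 lay 10 of 13 members with the NRF1 motif and 39 of 55 without it. For the ETS motif these counts were 17 of 25 and 32 of 43. Of all rows tested 41.8% lay above WT replicate 5. A match is a description of letters and not a bound site.

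The 250 bases before the start are shown for Mrpl17, the member with both an NRF1 and an ETS motif there, and for Mrpl41 and Mrpl1, the members above both WT libraries by the widest gaps that have an entry and in which neither motif was found in these bases. Mrpl17 lay 0.54 above WT replicate 5, Mrpl41 1.30 and Mrpl1 0.99. Capitals mark the motifs, and the sequences run 5′ to 3′ on the strand of the gene, from RefSeq (GRCm38.p6), at chr7:105811088-105811337 (minus strand), chr2:24975099-24975348 (minus strand) and chr5:96209865-96210114 (plus strand). The Mrpl1 stretch lies before the RefSeq start and inside the longer gene record of GENCODE M21.
Mrpl17: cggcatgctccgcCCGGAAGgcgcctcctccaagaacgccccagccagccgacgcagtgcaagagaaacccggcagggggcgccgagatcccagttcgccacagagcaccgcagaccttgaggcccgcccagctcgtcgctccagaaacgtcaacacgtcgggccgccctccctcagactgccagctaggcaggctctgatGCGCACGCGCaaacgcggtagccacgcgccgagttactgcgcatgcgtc
Mrpl41: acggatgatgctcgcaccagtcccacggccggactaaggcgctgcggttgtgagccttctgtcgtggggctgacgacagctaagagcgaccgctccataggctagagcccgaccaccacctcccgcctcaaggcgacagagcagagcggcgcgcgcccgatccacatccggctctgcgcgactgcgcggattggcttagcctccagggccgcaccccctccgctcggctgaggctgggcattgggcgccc
Mrpl1: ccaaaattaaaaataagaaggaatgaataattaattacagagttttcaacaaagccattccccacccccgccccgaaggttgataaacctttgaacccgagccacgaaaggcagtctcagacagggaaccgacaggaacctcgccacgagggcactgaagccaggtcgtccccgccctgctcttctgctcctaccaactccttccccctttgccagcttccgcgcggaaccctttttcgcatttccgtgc

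On the strand of the gene, ATGGCGG occurred in 10 member windows, and in 9 of them its ATG was the annotated start codon (GENCODE M21), against 292 of 819 such matches (35.7%) in all windows. The letters around it are shown for members named below and 2 others to let the shared context be compared, with the motif in capitals, at chr4:49521038-49521065 (minus strand) for Mrpl50, chr13:118387219-118387246 (minus strand) for Mrps30, chr17:46111006-46111033 (plus strand) for Mrps18a, chr6:71823743-71823770 (minus strand) for Mrpl35 and chr13:99344791-99344818 (plus strand) for Mrps27.
Mrpl50: tgcttgtcgagaATGGCGGcgctgatcg
Mrps30: cggcgggcgaaaATGGCGGcggccaggt
Mrps18a: gtgcgttccaagATGGCGGccctcaggg
Mrpl35: gcaggctgcaagATGGCGGcttccatct
Mrps27: gtgcgctccaagATGGCGGctcccatgg
Mrpl50 and Mrps30 lay above both WT libraries and Mrps18a below WT replicate 5, so members that share these letters lay on both sides. The knockout means of Mrpl35 and Mrps27 lay 0.22 and 0.25 above WT replicate 5, though for Mrps27 knockout replicate 3 lay just under it.

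By subunit, both knockout values exceeded WT replicate 5 in 38 of 50 members of the large subunit and lay under it in 4, and the median difference was 0.36. In the small subunit the counts were 18 and 2 of 26 members, and the median was also 0.36. With both WT libraries, 28 of 50 and 13 of 26 lay above and 0 of either below, with medians of 1.28 and 1.14. Of all rows tested, 17.3% lay above both WT libraries and 18.8% below both, with a median of -0.09. Against WT replicate 5 the shares of all rows were 41.8% and 33.4%, with a median of 0.07. With both WT libraries the medians were 1.08 for members with a bacterial counterpart and 1.44 for mitochondria-specific members. Members with such a counterpart had a median of 0.41 from WT replicate 5 (37 of 46 above, 2 below), and mitochondria-specific members 0.28 (18 of 28 above, 3 below). Whether these groups differ was not tested. Mrps36 is counted in neither subunit, since its protein is now assigned to the 2-oxoglutarate dehydrogenase complex. Mrps18a and Mrps30 are counted with the large subunit, where their proteins sit despite their names.

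In the small subunit, the widest gap between the groups was in Mrps35, a mitochondria-specific protein (chromosome 6, 147042764 to 147073991, plus strand, GRCm38, GENCODE M21). Its values were 5.05 and 5.19 in WT and 6.54 and 6.93 in knockout, so both knockout libraries lay above both WT libraries. The WT pair was close together. Its WT replicate 4 value lies in the lowest range described above, where a wide span of levels read alike, so this closeness is weak evidence of a small spread. The difference was 1.61 (SE 0.65, limma adjusted p = 0.826), and 1.54 without WT replicate 4 (adjusted p = 0.477), a level 2.90-fold that of WT replicate 5. Mrps2, the counterpart of bacterial S2 (chromosome 2, 28468066 to 28471178, plus strand), was at 8.24 and 6.45 in WT and 8.04 and 7.71 in knockout. The groups overlapped, since WT replicate 4 was the highest of the 4. All libraries gave a difference of 0.53 (limma adjusted p = 0.869), and leaving out WT replicate 4 gave 1.43 (adjusted p = 0.477). Mrps23 was at 5.48 and 7.07 in WT and 7.76 and 7.81 in knockout, with the knockout pair nearly equal. It lay 1.51 above the WT mean and 0.71 above WT replicate 5, and its WT replicate 4 value also lies in the lowest range. Mrps21, the counterpart of bacterial S21, was at 17.60 and 8.13 in WT and 7.68 and 8.30 in knockout, so the groups overlapped and WT replicate 4 alone was high, with differences of -4.87 with it and -0.14 without it.

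Among members of the large subunit, Mrpl41 (chromosome 2, 24974117 to 24975098, minus strand) was at 5.67 and 7.82 in WT and 8.86 and 9.39 in knockout. Its WT replicate 4 value lies in the lowest range described above. Both knockout libraries lay above both WT libraries, with a difference of 2.38 (SE 0.98, limma adjusted p = 0.826) and of 1.30 without WT replicate 4 (adjusted p = 0.480). Mrpl1, the counterpart of bacterial L1 at the ribosome's L1 stalk (chromosome 5, 96209493 to 96266727, plus strand), was at 5.46 and 7.09 in WT and 8.09 and 8.07 in knockout. Its WT replicate 4 value also lies in the lowest range. The knockout pair was nearly equal, with a difference of 1.81 (SE 0.82, limma adjusted p = 0.826) and of 0.99 without WT replicate 4 (adjusted p = 0.477), or 1.99-fold the level of WT replicate 5. Mrps30 was at 7.60 and 9.13 against 9.83 and 9.71, and Mrpl50 at 7.33 and 7.77 against 8.39 and 8.63. In both genes the knockout libraries lay above both WT libraries, with differences of 1.40 and 0.96, and of 0.64 and 0.74 without WT replicate 4. Mrpl24, the counterpart of bacterial L24, was at 5.60 and 7.85 against 8.40 and 8.93, and Mrpl46 at 5.62 and 8.60 against 9.13 and 9.17. Their WT replicate 4 values lie in the lowest range described above, and their differences were 1.94 and 2.04 with it and 0.82 and 0.55 without it. Limma gave each of these 4 genes an adjusted p of 0.826 with all libraries and of 0.491 to 0.551 without WT replicate 4.

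**Figure D4:**
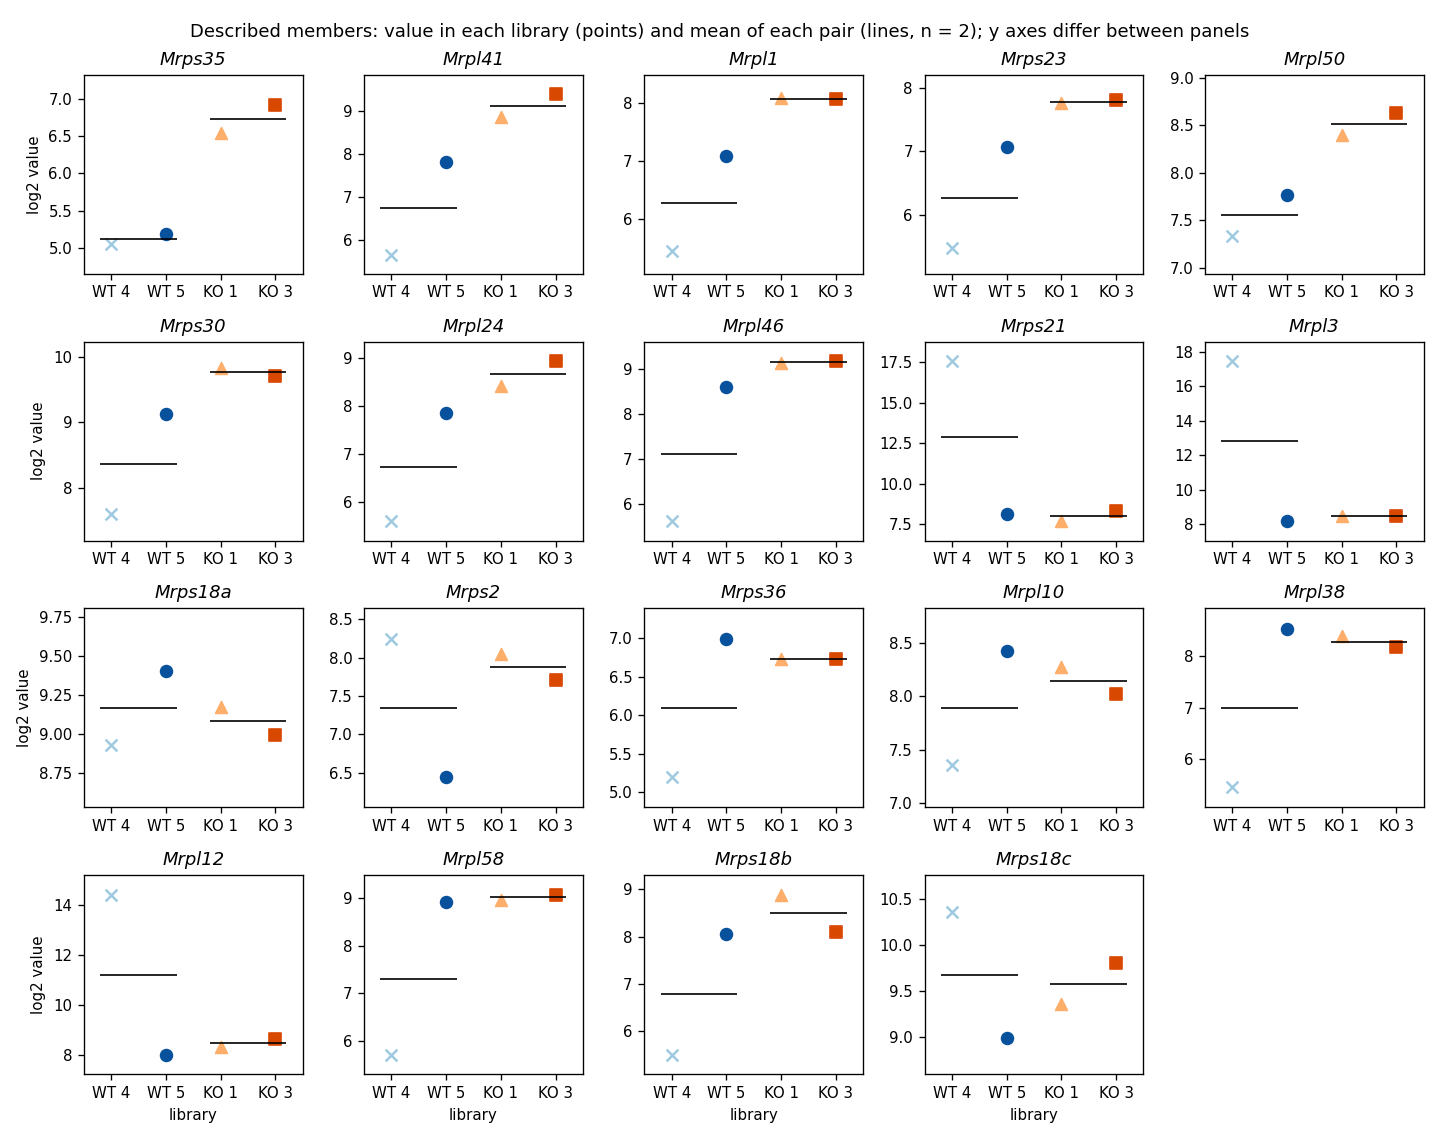
Log2 value in each library (points) and mean of each pair of libraries (lines, n = 2) for the 19 members chosen by rule, with a y axis of its own for each gene. In the first 8 panels both knockout points lie above both WT points, and in Mrps21, Mrpl3 and Mrpl12 the WT replicate 4 point alone is high.

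The 3 S18 paralogs did not all lie on the same side of WT replicate 5. Mrps18a, whose protein sits in the large subunit (chromosome 17, 46110986 to 46128910, plus strand), was at 8.93 and 9.40 in WT and 9.17 and 8.997 in knockout, with a difference of -0.08 with all libraries. It differed by -0.32 from WT replicate 5, the lowest such difference of the 77 members. Mrps18b was at 5.502 and 8.06 in WT and 8.89 and 8.11 in knockout, where the knockout libraries were 0.78 apart, wider than the distance of 0.44 to WT replicate 5, and 1.72 was the difference with all libraries. Mrps18c, the direct counterpart of bacterial S18, was at 10.36 and 8.99 in WT and 9.36 and 9.80 in knockout, so the groups overlapped, with differences of -0.10 with all libraries and 0.59 without WT replicate 4. Limma adjusted p-values of the 3 genes were 0.826 to 0.981 with all libraries and 0.597 to 0.759 without WT replicate 4, and the differences between the paralogs were not tested.

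Of members with roles of their own, Mrpl12 encodes the stalk protein that recruits translation factors and is also known to bind the mitochondrial RNA polymerase. It was at 14.40 and 8.02 in WT and 8.35 and 8.64 in knockout, so its difference of -2.72 with all libraries (adjusted p = 0.826) was 0.48 without WT replicate 4 (adjusted p = 0.609). Mrpl10 encodes the stalk base that carries L12, and was at 7.36 and 8.42 in WT against 8.27 and 8.02 in knockout, both below WT replicate 5. With all libraries it differed by 0.26, and without WT replicate 4 by -0.27. Mrpl58 encodes a peptidyl-tRNA hydrolase built into the large subunit that frees stalled ribosomes. It was at 5.72 and 8.91 in WT and 8.95 and 9.07 in knockout, so the groups did not overlap, but knockout replicate 1 and WT replicate 5 were nearly equal. All libraries gave a difference of 1.69 (limma adjusted p = 0.826), and leaving out WT replicate 4 gave 0.10 (adjusted p = 0.840).

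The 7 members with both knockout values below WT replicate 5 were Mrps18a, Mrpl10, Mrps36, Mrpl38, Mrpl37, Mrps10 and Mrps34. Their differences were small, from -0.32 to -0.12. Mrpl38 was at 5.46 and 8.52 in WT and 8.38 and 8.18 in knockout, and Mrps36 at 5.20 and 6.98 in WT and 6.73 in both knockout libraries. With WT replicate 4 the differences of these 2 genes were 1.29 and 0.64, on the higher side. At the edge of the filter, Mrps6 had the lowest values of the members, at 4.43 and 4.45 in WT and 3.82 and 4.98 in knockout, and Mrpl53 was outside. The other 58 members not described one by one had differences from WT replicate 5 between -0.27 and 0.75.

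In the authors' deposited table, 3 members were called lower in knockout and 0 higher at an adjusted p under 0.05, or 3.9% and 0.0%, beside 3.94% and 0.156% of all rows tested. The authors' deposited table heads this column WT against knockout. Here a positive value is taken to mean higher in knockout, because the column and the difference between the sample columns had a Pearson's r of 0.78 over 17185 genes. The 3 were Mrps21 at -8.56 (adjusted p = 7.09e-04), Mrpl3 at -8.34 (adjusted p = 8.51e-04) and Mrps18a at -5.39 (adjusted p = 0.0362) in the authors' deposited table. Mrpl3, the counterpart of bacterial L3, was at 17.46 and 8.16 in WT and at 8.47 in both knockout libraries, so without WT replicate 4 it lay 0.31 higher in knockout, against the deposited sign. For Mrps18a the sample columns differed by -0.08, far from the deposited fold change. The deposited log2 fold change was positive for 53 members, from 0.36 to 2.11 in the authors' deposited table, and the smallest adjusted p among them was 0.0850, that of Mrpl41. All 9 members of the highest range of WT replicate 4 had negative values, from -9.53 to -4.25, in the authors' deposited table. In 13 members (16.9%, beside 15.6% of all rows tested) the deposited sign was opposite to knockout minus WT of the sample columns. Among these 13 was Mrps2, at -7.65 in the authors' deposited table. The authors' deposited table lists a p-value of exactly 1 for 15 members (19.5%, beside 9.63% of all rows), among them 6 of the 9 in the highest range.

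Other genes of mitochondrial translation were compared in the same way. Of all rows tested, 41.8% lay above WT replicate 5 in both knockout libraries and 33.4% below it, with a median of 0.07. The remaining proteins of the mitochondrial ribosome (Dap3, Aurkaip1, Chchd1, Ptcd3 and Gadd45gip1) were above WT replicate 5 in 4 of 5 cases and below it in 0, and their median difference was 0.33. For ribosome assembly and rRNA modification it was 0.25, with 13 of 25 genes above and 1 below. For translation factors it was 0.33, with 7 of 15 above and 3 below. Mtfmt, which makes the formylated initiator tRNA, was at 5.17 and 6.78 in WT and 7.83 and 7.61 in knockout. The mitochondrial aminoacyl-tRNA synthetases and amidotransferase subunits supply charged tRNAs, and 10 of 20 were above and 7 below (median 0.10). They held wide single differences, with Yars2 at 5.04 and 5.39 in WT and 7.93 and 7.74 in knockout, and Iars2 at 5.18 and 4.51 against 7.40 and 7.46. In the authors' deposited table Iars2 was the 1 gene of these 6 lists called higher, at 3.33 (adjusted p = 0.0442). Called lower there were 5 of 15 genes of mitochondrial DNA and 1 of 15 of mitochondrial transcription and RNA processing. Of all rows tested, 3.94% were called lower and 0.156% higher. Mitochondrial transcription and RNA processing had 9 of 15 genes above and 3 below (median 0.47). Mitochondrial DNA itself had 6 of 15 genes above and 4 below (median 0.12). With both WT libraries the last list's median was -0.62, the opposite sign. In that list 3 genes lay above both and 4 below both, beside 17.3% and 18.8% of all rows tested. The medians of the other 5 lists were then 0.67, 0.72, 0.90, 0.81 and 1.13 in the order above. Limma called 0 genes of these lists with all libraries, beside 0.0% of all rows tested.

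Beside them, 72 of 82 cytosolic ribosomal protein genes lay above WT replicate 5 and 2 below (median 0.58). Of 81 nuclear genes of the respiratory chain and ATP synthase, 57 lay above and 5 below (median 0.34). The shares of all rows tested were 41.8% above and 33.4% below. In those 2 groups knockout replicate 3 again lay higher than replicate 1, by medians of 0.54 and 0.33, beside -0.01 over all rows tested. In WT replicate 4 the cytosolic group lay a median of 3.62 above WT replicate 5, with 40 of 82 genes above 12, while the mitochondrial ribosomal group lay a median of 1.73 below it. With all libraries the medians were -1.07 for the cytosolic ribosomal, 0.60 for the respiratory chain and 1.28 for the mitochondrial ribosomal genes. These comparisons share their libraries and were not tested against each other.

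**Figure D5:**
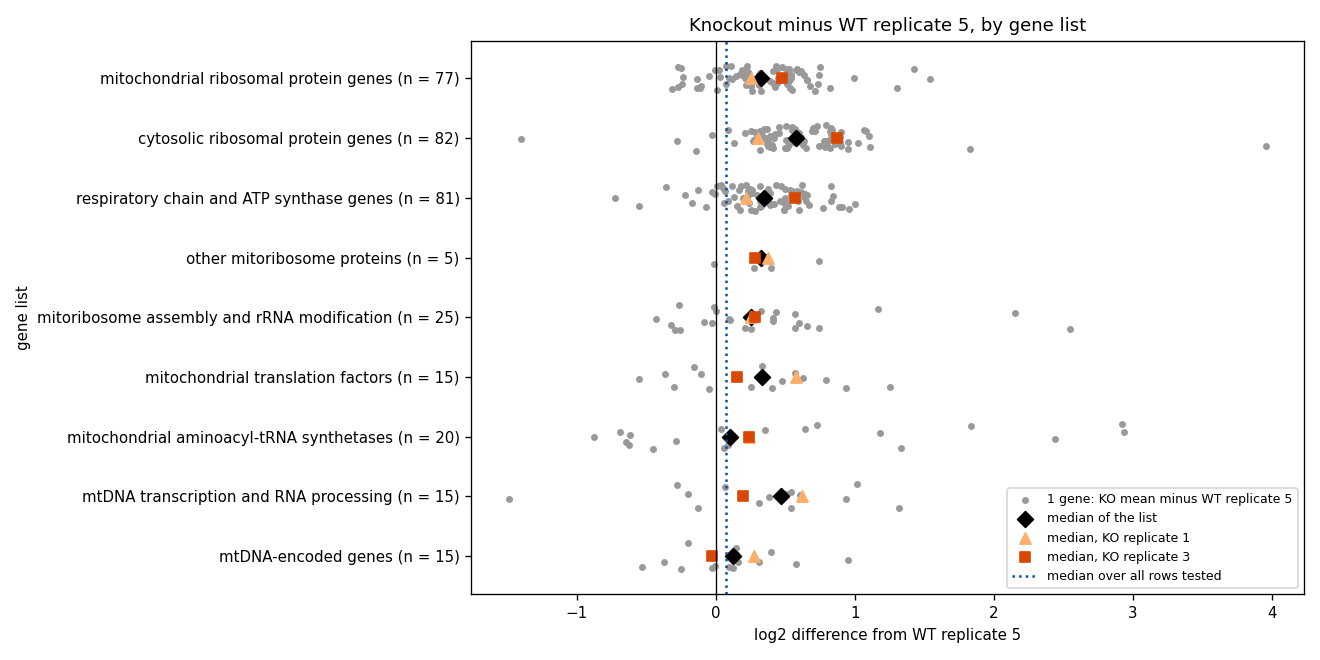
Log2 difference of the knockout mean from WT replicate 5 (x axis) for each gene (grey points) of 9 lists (y axis), with the list's median (diamond) and the medians for knockout replicate 1 (triangle) and replicate 3 (square), which can cover each other. The mitochondrial ribosomal median is 0.32, against 0.07 over all rows tested (dotted line), and in the 3 lists at the top the square lies right of the triangle.

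Transcript length moved with the difference from WT replicate 5 over all rows. The longest annotated coding transcript (GENCODE M21) had a median of 1339 bases over the 77 members and 3006 over the 12794 rows with a length. With the rows split by length into 5 bins of about equal size, the median difference over all rows was 0.22 in the shortest bin (144 to 1683 bases) and -0.18 in the longest (Spearman's rho = -0.14 across genes, which share libraries and are not independent). In the shortest bin lay 47 members, with a median of 0.31 and 32 above WT replicate 5, beside 51.6% of the rows of that length. In the next 4 bins, by rising length, 5 of 9, 9 of 9, 6 of 8 and 4 of 4 members lay above WT replicate 5. Of all rows of those bins 44.6%, 42.6%, 42.1% and 29.9% did. The members' medians were 0.26, 0.53, 0.27 and 0.37, beside 0.10, 0.09, 0.07 and -0.18 for all rows of those bins. Within the members Spearman's rho between length and difference was 0.18. The part of transcript length in the result was not tested. The members lie on 17 chromosomes, with 11 on chromosome 11. In 32 members an exon overlaps an exon of another gene, on the opposite strand in 27, and whether counting used strand is not given in the sources used here, so values of such genes are uncertain. Mrpl46 and Mrps11 overlap each other, and Mrpl10, Mrpl12, Mrpl24, Mrps18b, Mrps30 and Mrpl58 also overlap opposite-strand genes. Mrpl3 overlaps genes on both strands, and Mrps18c overlaps a gene on the same strand. Of the 45 members without such an overlap, 33 exceeded WT replicate 5 and 5 lay under it in both knockout libraries (median 0.41). Of all rows tested, with or without an overlap, 41.8% and 33.4% did (median 0.07). The part of overlaps in the result was not tested.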

How the data were processed

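RNA with poly(A) tails was sequenced from 4 libraries, 2 per genotype. The authors deposited 1 table of normalized log2 values per gene symbol (transform and scaling not given in the sources used here), with their log2 fold change, p-value and adjusted p-value per gene. The build GRCm38 and the tools DESeq2, featureCounts, HISAT2 2.1.0 and CASAVA stand in the submitters' processing notes, without a role or order. Without counts the depth per library is unknown and no interval was computed. Log2 values were used as deposited, without a pseudocount. Under R 4.3.3, limma 3.58.1 (trend on) was fitted over the 17303 rows with a value of at least 0 in 2 or more libraries and not 0 in all 4, with Benjamini-Hochberg adjustment over all of them and calls at an adjusted p under 0.05. Differences are knockout minus WT with limma's moderated standard error (SE). The step was tested on simulated data with the same spread in all 4 libraries. The simulation held no library that stands apart like WT replicate 4, so it does not show how the step performs with such a library. The described members were up to 8 with both knockout values above and up to 8 below both WT values by the widest gap, up to 6 called in the deposited table, up to 4 on each side of WT replicate 5, and Mrpl12, Mrpl58 and the S18 paralogs. Of the other lists, up to 2 genes with the widest gap could be named. Members, lists, rules and tests were chosen with earlier results of these data known. Alternatives were leaving out each library, other filters, a pseudocount of 1, centring, quantile normalization and limma without a trend. Centring and quantile normalization without WT replicate 4 were added after the values were seen. No column held values of other samples.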

Additional observations from a re-analysis of the deposited data

How the results depend on the processing

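No paired analysis was possible because the groups share no replicate number. Where 1 library of a group was left, it is assumed to vary like the other group. The count of 0 members called by limma ran from 0 to 51 when single libraries were left out (51 without WT replicate 5, 0 without each of the others) and was 0 under all other alternatives. The median difference over members was positive under all alternatives, from 0.29 (quantile normalization without WT replicate 4) to 2.02 (without WT replicate 5). Over all rows tested the medians were 0.02 and -0.46 in these cases. Members above all WT libraries numbered 35 (quantile normalization, beside 23.5% of all rows tested) to 59. The count of 59 came without WT replicate 5, beside 38.5% of all rows, and with centring without WT replicate 4, beside 43.9%. Members below all WT libraries numbered 14 without WT replicate 5, 7 without WT replicate 4, 3 without knockout replicate 3 and 0 without knockout replicate 1. The shares of all rows were 50.7%, 33.4%, 25.2% and 30.6%. The count was 1 with centring, 2 with quantile normalization, and 5 and 6 with these without WT replicate 4. For those settings the shares of all rows were 19.3%, 12.5%, 30.5% and 37.0%. The Ybx1 difference ran from -11.89 (called, without WT replicate 5) to -2.19 when single libraries were left out, and was -2.12 with centring and -2.22 with quantile normalization without WT replicate 4. The direction turned in 8 described members when single libraries were left out, with differences of -0.27 to 0.79 for Mrpl10, -5.91 to 0.48 for Mrpl12, -8.99 to 0.31 for Mrpl3, -0.24 to 2.82 for Mrpl38, -0.32 to 0.15 for Mrps18a, -0.78 to 0.59 for Mrps18c, -0.36 to 1.43 for Mrps2 and -0.25 to 1.53 for Mrps36. Leaving out WT replicate 4 turned the sign of 6 of them, all but Mrps18a and Mrps2. With centring or quantile normalization without it, differences were -0.30 to -0.20 for Mrpl10, 0.45 to 0.55 for Mrpl12, 0.29 to 0.39 for Mrpl3, -0.27 to -0.17 for Mrpl38, 0.54 to 0.66 for Mrps18c and -0.24 to -0.18 for Mrps36. With quantile normalization of all libraries Mrpl10 was at -0.24 and Mrps18c at 0.14, and the cause was not tested. Precision is limited by the unknown depth and by 2 libraries a group.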
